A study of Mus musculus with 15 samples.

Results

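Livers that had received carbon tetrachloride (CCl4) together with ethanol were compared with livers that had received ethanol without CCl4, both at day 20. The comparison takes 6 of the 15 RNA libraries of the series, 3 of the CCl4+CCl4/EtOH 20D group (libraries 18, 19 and 20 by the numbers in their titles) and 3 of the OO+OO/EtOH 20D group (libraries 13, 14 and 15), over every gene of the deposited count tables. All animals were adult male C57BL/6 mice (C57BL6/J in the treatment protocol), and RNA came from whole liver. The CCl4 group was injected into the abdomen with 0.2 ml/kg CCl4, 2 times a week for 6 weeks. Ethanol of up to 25 g/kg per day then ran through a feeding tube in the stomach for 3 weeks, beside CCl4 at 0.5 of the first dose. The other group is named OO in the labels, which do not spell the name out, and it received the same ethanol feeding without CCl4. Both groups carry a high-fat diet with the ethanol in their labels, so diet and ethanol are shared by the 6 libraries. The treatment that differs between the groups by the labels is CCl4, before and during ethanol. Sequencing lane differed between the groups as well. The groups are called the CCl4 arm and the OO arm below. The comparison asks how a liver under repeated CCl4 injury and alcohol differs from a liver under alcohol alone, in a model of acute injury on chronic liver disease. Other groups that serve here as reference are OO (n = 2) and CCl4 (n = 2) at day 0, and at day 20 CCl4 with chow (n = 2) and OO with chow (n = 1). At day 23 they are OO with chow (n = 1) and OO with ethanol (n = 1). Whether each library came from its own animal is not stated in the labels, and the p-values cover only the spread among libraries, which may be technical.

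CCl4 is a solvent that cytochrome P450 enzymes, chiefly CYP2E1, convert to a radical that kills hepatocytes around the central vein. Repeated injury activates hepatic stellate cells, which lay down collagen, and draws monocytes and neutrophils from the blood, while surviving hepatocytes divide. CYP2E1 also oxidises ethanol, so the same pericentral cells meet both agents.

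Counts assigned to genes ranged from 10973803 to 21880629 in the 6 libraries and from 10347844 to 28843258 over the 15. Hepatocyte genes dominated every library: Alb, which encodes serum albumin, stood at 39720, 33030 and 37320 CPM (counts scaled to the library's total by TMM, in the usual per-million unit) in OO libraries 13, 14 and 15 and at 54450, 43030 and 56700 CPM in CCl4 libraries 18, 19 and 20. The values did not overlap between the arms, but the difference in Alb of 0.49 ± 0.17 on the log2 scale (± SE) was not called (adjusted p = 0.0577; called without library 13 or 19). One library of each arm stood apart by transcripts of skeletal muscle. The 12 tested genes of a muscle list summed to 1908 CPM in OO library 14 and to 2496 CPM in CCl4 library 20. In the other 4 libraries they summed to 3.96 to 6.19 CPM. Ttn, the giant spring protein of the sarcomere, read 1368 and 1866 CPM in those libraries and at most 4.05 CPM in the other 4. None of 47 genes that were over 5 times higher in both libraries 14 and 20 than in any of the other 4 was called. Such genes differ widely within each arm, so a call was hardly possible. The count does not show how muscle transcripts affected the calls of other genes. Pancreatic genes were near their floor in all 6 (6.32 to 14.5 CPM in sum). Sequencing lane, read from the names of the deposited tables, was not shared between the arms, so lane and arm cannot be told apart within the 6 libraries.

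The tables list 24499 genes, of which 14778 passed the filter on low counts and were tested, and 3509 of them (23.7%) were called, at an adjusted p (Benjamini-Hochberg) under 0.05 in the quasi-likelihood test of edgeR. Higher in the CCl4 arm were 1880 genes (12.7% of those tested) and lower 1629 (11%). The median difference over all tested genes was -0.042 on the log2 scale. Rises of size outnumbered large falls: 474 called genes were more than 4-fold higher and 98 more than 4-fold lower. A principal component analysis of the 6 libraries parted the arms on its first axis, with 55.3% of the variance. The balance turned without OO library 13, with 1910 higher and 2071 lower, and was 1513 against 806 with the 6 libraries fitted alone. Called genes numbered 2223 without CCl4 library 18, and 2020 without libraries 14 and 20, of which 1891 were among the 3509. The 15 genes with the largest rises include genes of macrophages (Gpnmb, Mmp12), of dividing cells (Ckap2, Kif14, Ccnb1, Cenpf, Hmmr, Depdc1a, Kif2c, Ube2c, Nuf2), the steroid reductase Akr1c18, the P450 Cyp3a44 and the trypsin inhibitor Spink1. The 15 with the largest falls include hepatocyte enzymes and carriers: the P450s Cyp2a5, Cyp4a12a, Cyp2c38, Cyp4a12b, Cyp7b1 and Cyp2e1, the fatty acid elongase Elovl3, the fat storage protein Fitm1, the glutamate transporter Slc1a2, the sulfotransferase Sult2a7 and the carbonic anhydrase Car3.

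**Figure D1:**
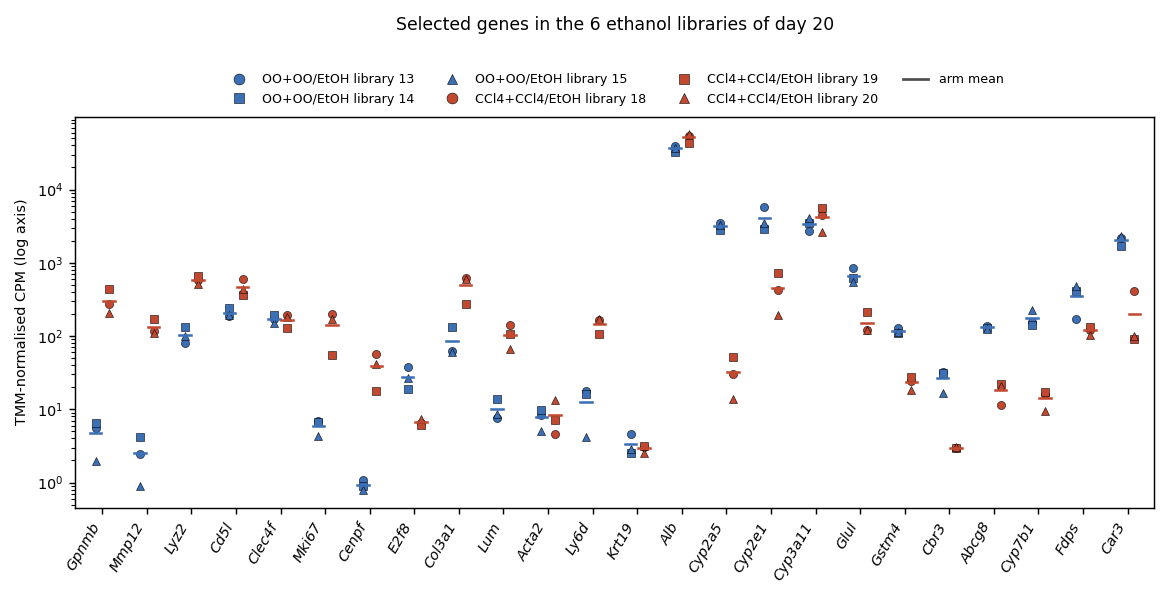
TMM-normalised CPM on a log axis for 24 genes in the 6 compared libraries, with 1 point per library and a bar at each arm's mean. Gpnmb, Mki67 and Lum lie higher in all 3 CCl4 libraries, Cyp2a5, Cbr3 and Abcg8 lie lower in all 3, and Clec4f, Acta2, Krt19 and Cyp3a11 overlap.

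Genes of mitosis rose almost as a block. Of 62 tested members of a mitosis list 58 were called higher (background 12.7%) and 1 lower, with a median difference of 3.93 against -0.042 over all tested genes. The promoters of many of these genes share short sequence elements that dividing cells use: the cell cycle genes homology region (CHR, searched as TTTGAA or TTCGAA), which is bound by the DREAM and MuvB complexes, and the CCAAT box (searched as CCAAT), which is bound by NF-Y. In RefSeq windows (GRCm38.p6) of 250 bases before to 50 after a start site, found for 53 of the 62 genes, 63.8% of 58 windows held both elements on either strand. Among all windows of tested genes with an entry the share was 5.76% of 14173. For a DNA replication list the share was 19% of 42 windows. A CHR match occurred in 74.1% of the mitosis windows and in 14.4% of all windows, and the CCAAT letters in 74.1% and 37.5%. The CCAAT letters were as frequent in other lists, with 80% of 20 cholesterol synthesis windows and 61.9% of the replication windows, where a CHR match occurred in 10% and 21.4%. The search found letters only, and it does not show that a factor was bound. The following stretches belong to the 5 called mitosis genes of smallest adjusted p whose window held both elements. They are shown as examples of windows that hold both elements, which are in capitals, as CCAAT or its reverse complement ATTGG and as TTTGAA.
Aspm (spindle pole protein), chr1:139454673-139454792, plus strand: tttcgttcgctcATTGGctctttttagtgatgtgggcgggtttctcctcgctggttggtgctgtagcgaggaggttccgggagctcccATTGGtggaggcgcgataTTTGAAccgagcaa
Cenpf (kinetochore protein), chr1:189688067-189688186, minus strand: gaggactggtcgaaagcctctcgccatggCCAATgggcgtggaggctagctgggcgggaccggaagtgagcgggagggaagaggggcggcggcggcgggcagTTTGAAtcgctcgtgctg
Hmmr (hyaluronan receptor of the spindle), chr11:40733418-40733537, minus strand: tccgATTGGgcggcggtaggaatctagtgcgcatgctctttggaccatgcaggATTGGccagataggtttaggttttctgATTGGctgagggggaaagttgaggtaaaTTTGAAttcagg
Mki67 (the proliferation marker Ki-67), chr7:135716438-135716557, minus strand: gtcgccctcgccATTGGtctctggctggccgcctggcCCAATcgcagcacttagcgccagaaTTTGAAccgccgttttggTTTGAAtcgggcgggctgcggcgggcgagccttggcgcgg
Prc1 (organiser of the spindle midzone), chr7:80294351-80294470, plus strand: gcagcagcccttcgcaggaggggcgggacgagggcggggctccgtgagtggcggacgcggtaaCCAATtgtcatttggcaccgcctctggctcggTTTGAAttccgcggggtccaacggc
All stretches but that of Mki67 end 19 bases after the start site.

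Mki67 read 6.84, 6.63 and 4.34 CPM in OO libraries 13, 14 and 15 and 200, 55.9 and 170 CPM in CCl4 libraries 18, 19 and 20, a difference of 4.57 ± 0.43 (log2 ± SE, adjusted p = 8.48e-05). Cenpf read 1.09, 0.887 and 0.797 CPM against 56.9, 17.8 and 41.4 CPM (5.39 ± 0.43, adjusted p = 3.94e-05), and Aspm 1.88, 1.51 and 1.15 CPM against 34.9, 15.6 and 27.4 CPM (4.10 ± 0.32, adjusted p = 3.51e-05). No library of the CCl4 arm reached down to the OO range, and library 19 was the lowest of its arm for each of these genes. That order held across the list: library 19 was the lowest CCl4 library for 58 of the 58 members called higher, library 18 the highest for 40 and library 20 for 18. Summed over the list, the 3 CCl4 libraries stood at 1565, 544 and 1287 CPM and the OO libraries at 132, 156 and 142 CPM. The members called higher numbered 58 to 60 when any of the 6 libraries was left out, and 58 without libraries 14 and 20. Cyclin B1, the partner of CDK1 at entry into mitosis, is encoded by Ccnb1, which rose from 0.656 ± 0.461 to 32.1 ± 20.5 CPM (SD, n = 3), a log2 difference of 5.48, or 6.22 without library 14 and 4.88 without library 18. The member called lower was Pttg1, securin, at 18 against 12.8 CPM on average; that call was lost without library 14, 15, 18, 19 or 20. Bub3, a checkpoint protein with roles outside mitosis, read 32.5 and 35.2 CPM on average and was not called.

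**Figure D2:**
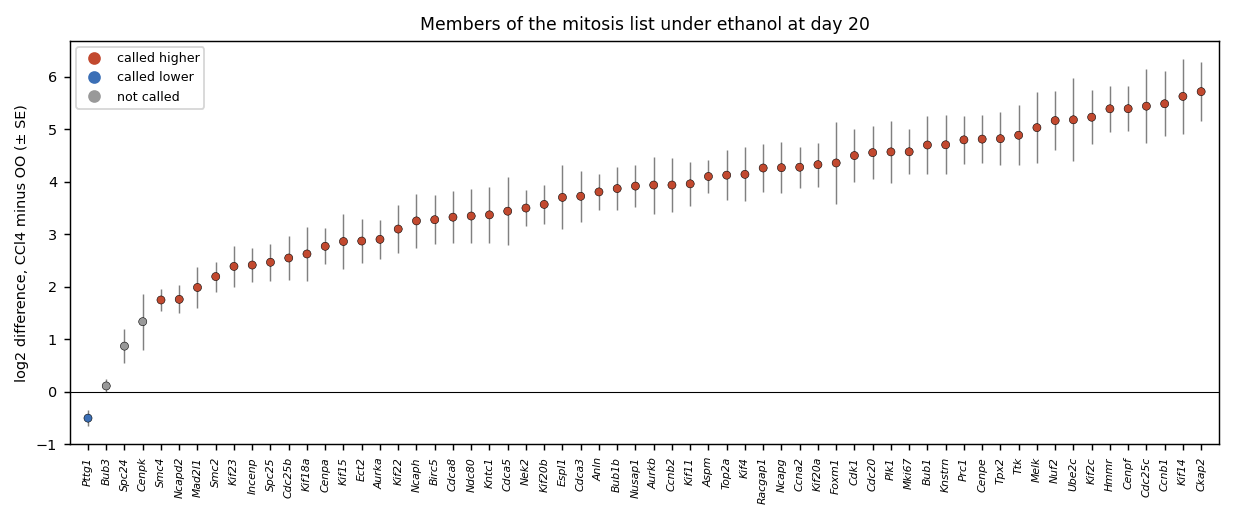
The log2 difference between the arms with its standard error for the 62 tested members of the mitosis list, in ascending order. All points lie above 0 except that of Pttg1, the member called lower.

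Genes of DNA replication changed less. Of 44 tested members 22 were called higher and 2 lower, with a median difference of 0.97 on the log2 scale. The count higher was 10 without library 14, 9 without 15, 9 without 18, 8 without 20 and 5 without both 14 and 20. Ccnd1, cyclin D1 of the G1 phase, read 25.2, 37.1 and 26.5 CPM in the OO arm and 162, 68.2 and 124 CPM in the CCl4 arm, 3.99-fold higher with no overlap (adjusted p = 0.000523). Against the direction of the list, E2f8, a repressor of E2F target genes in polyploid hepatocytes, fell from 38, 18.9 and 26.8 CPM to 6.46, 6.07 and 7.41 CPM (-2.07 ± 0.23, adjusted p = 0.000154). Mcm10, a loader of replication factors, fell from 32.8 ± 9.44 to 12.4 ± 4.39 CPM (SD, n = 3). Pcna, the sliding clamp, read 21.5, 31.5 and 29.6 CPM against 36.2, 33 and 56.1 CPM and was not called (adjusted p = 0.0698; called without library 19).

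Macrophages formed the next group. A list of scar-associated macrophage genes, known from fibrotic liver, had 21 of 26 tested members called higher and 0 lower (background 12.7% and 11%), with a median difference of 2.45. Gpnmb, a glycoprotein of lipid-laden macrophages, read 5.55, 6.53 and 1.95 CPM in the OO arm and 273, 434 and 206 CPM in the CCl4 arm. Mmp12, the macrophage elastase, read 2.48, 4.18 and 0.885 CPM against 117, 173 and 109 CPM (5.64 ± 0.79, adjusted p = 0.000581). Every CCl4 library exceeded every OO library by a wide margin for both genes. Lpl, lipoprotein lipase, rose from 27.7, 42.1 and 29.6 CPM to 222, 184 and 172 CPM (adjusted p = 5.16e-05), and Cd63 and Capg, a tetraspanin and an actin cap, rose 6.12-fold and 7.14-fold. In this list library 19 was the highest CCl4 library for 13 of the 21 members and library 20 the lowest for 13, an order unlike that of the mitosis genes. The abundant members Apoe and Ctsl, which hepatocytes also express, were not called: Apoe averaged 9721 and 8108 CPM and Ctsl 1120 and 790.3 CPM in the OO and CCl4 arms (Ctsl was called without library 19). The list counted 21 higher without libraries 14 and 20.

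Of the resident Kupffer cell list 8 of 18 tested members were called higher and 1 lower. Csf1r, the receptor for the macrophage growth factor CSF1, rose 1.77-fold, Adgre1, encoding a macrophage surface marker, 2.24-fold, and Cd5l, a secreted scavenger protein, from 189, 240 and 195 CPM to 610, 360 and 444 CPM. The member that fell was Timd4, a receptor for dying cells that marks long-resident Kupffer cells, from 11.6, 9.76 and 10.3 CPM to 5.36, 3.43 and 4.29 CPM (-1.26 ± 0.25, adjusted p = 0.00446). Clec4f, a lectin specific to Kupffer cells in mice, read 169, 192 and 152 CPM against 192, 128 and 182 CPM, overlapping fully (-0.03 ± 0.15, adjusted p = 0.91). The count higher was 4 without library 15 and 4 without library 18. Monocyte and recruited macrophage genes had 20 of 25 tested members higher and 0 lower, with a median of 1.49. Lyz2, lysozyme of myeloid cells, read 79.8, 132 and 99.8 CPM in the OO arm and 583, 651 and 517 CPM in the CCl4 arm, and Cx3cr1, the fractalkine receptor, 0.991, 2.09 and 0.708 CPM against 20.2, 14.5 and 13.1 CPM. Ptprc, encoding the leukocyte antigen CD45, rose 2.75-fold (adjusted p = 8.83e-05). In bulk RNA more cells of a type and more RNA per cell cannot be told apart. Without library 14 the difference of Cx3cr1 was 4.23 in place of 3.56 and that of Mmp12 6.33 in place of 5.64.

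Neutrophil granule genes rose from near 0. Of 16 tested neutrophil genes 11 were called higher and 0 lower, with a median of 2.27. Ltf, lactoferrin, read 0.595, 0.365 and 0.62 CPM against 15.2, 6.01 and 23.9 CPM (4.87 ± 0.52, adjusted p = 0.000135), and S100a8, a subunit of calprotectin, 7.13, 4.28 and 9.03 CPM against 29.7, 20.3 and 53.5 CPM. Library 19 was the lowest CCl4 library for 10 of the 11 and library 20 the highest for 10. The count was 7 without library 14, 6 without library 15 and 6 without both 14 and 20. Lcn2, an iron-binding acute-phase protein that hepatocytes make as well, read 1366, 724 and 568 CPM against 1033, 789 and 1802 CPM and was not called (adjusted p = 0.572). T and NK cell genes stayed low in all 6 libraries, at 4.54 to 20.2 CPM summed over 18 genes. Of these 17 were tested and 2 were called higher (11.8%), near the background of 12.7%. The 2 were Il7r, the interleukin 7 receptor, and Thy1, whose call was lost without library 13, 14, 18, 19 or 20. Of 10 B and plasma cell genes 3 were higher, among them Jchain, the joining chain of secreted antibodies, whose call was lost without library 14 or 18; the list's count was 1 without library 18.

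Of 18 antigen presentation genes 6 were higher and 1 lower. Those higher were the class II genes H2-Aa, H2-Eb1, H2-Ab1 and H2-DMb1, the class II chaperone Cd74, whose call was lost without library 14, 15, 18 or 20, and the activator Ciita; H2-Aa rose from 17.5, 15 and 10.5 CPM to 48.2, 45 and 42.9 CPM (1.66 ± 0.19, adjusted p = 0.000174). H2-K1, a class I gene, fell 1.51-fold, from 1171, 1145 and 1137 CPM to 717, 894 and 669 CPM, a call lost without libraries 14 and 20. The class I genes H2-D1 and B2m, at differences of -0.21 and -0.12, were not called. Among cytokines, Toll-like receptors and inflammasome genes 13 of 29 were higher and 1 lower. Tlr8, an endosomal RNA sensor, read 5.95, 6.53 and 8.32 CPM against 29.2, 23.6 and 25.3 CPM, and Tlr7, Tlr13, Tlr1 and Tlr4 also rose. Tlr5, the flagellin receptor, fell from 12.3, 11.9 and 10.5 CPM to 3.46, 0.92 and 2.19 CPM (-2.37 ± 0.35, adjusted p = 0.000764). Tlr2 read 29.5, 12.5 and 12.8 CPM against 20.2, 20.5 and 16.2 CPM and was not called except without library 13. Gsdmd, the pore protein of pyroptosis, read 31.4, 45.6 and 44.4 CPM against 38.7, 35.7 and 41.9 CPM (-0.07 ± 0.14, adjusted p = 0.787), and Il1b, one of the cytokines released through that pore, 5.95, 5.74 and 3.63 CPM against 8.69, 5.82 and 3.45 CPM (adjusted p = 0.601). Chemokine genes had 6 of 20 higher and 1 lower; the count higher was 2 without library 15, 2 without library 18 and 3 without 14 and 20. Interferon-stimulated genes had 9 of 26 higher, a count of 15 without library 13 and of 5 without library 18 or without both 14 and 20.

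**Figure D3:**
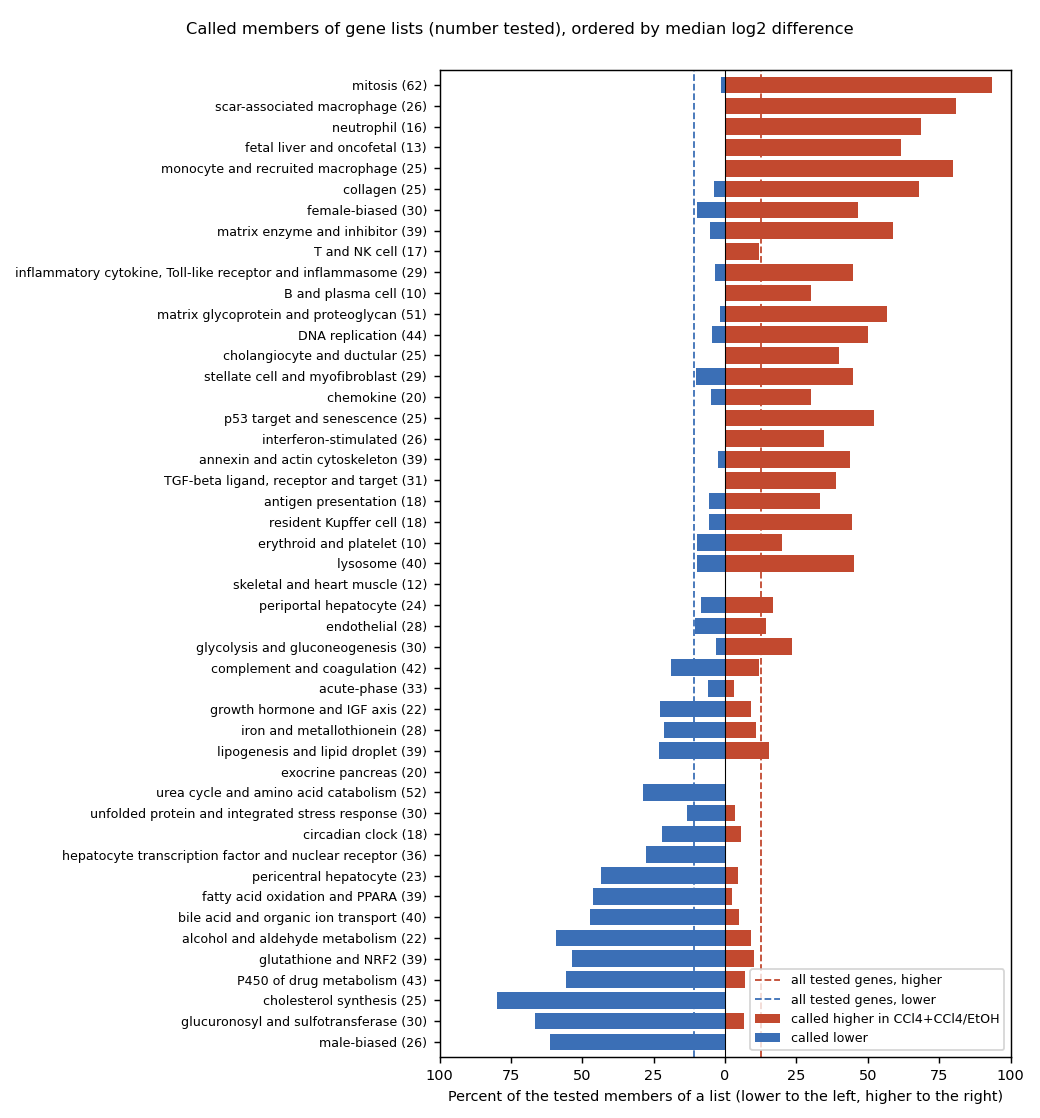
Share of the tested members of each gene list called higher (to the right) or lower (to the left) in the CCl4 arm, with dashed lines at the shares over all tested genes, 12.7% and 11%. Lists with at least 10 tested members are ordered by their median log2 difference, from the mitosis list at the top to the male-biased list at the bottom.

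Matrix genes rose as well. Over all tested genes 12.7% were called higher and 11% lower. Of 25 tested collagen genes 17 were called higher and 1 lower (median 1.47), of 51 matrix glycoprotein and proteoglycan genes 29 and 1 (median 1.01), and of 39 matrix enzyme and inhibitor genes 23 and 2 (median 1.27). The fibril-forming collagen gene Col3a1 read 61.7, 135 and 60.6 CPM in the OO arm and 619, 275 and 592 CPM in the CCl4 arm (2.53 ± 0.40, adjusted p = 0.00126), and Col1a1 12.5, 14.2 and 5.22 CPM against 78.6, 24.1 and 65.6 CPM. Col6a3, of the beaded filaments around cells, read 32.1, 38.7 and 30.3 CPM against 190, 118 and 175 CPM (2.25 ± 0.22, adjusted p = 9.37e-05). The arms overlapped for none of the 17 collagens called higher, and also not for 3371 of all 3509 called genes. Library 19 was the lowest CCl4 library for 12 of the 17 collagens. Col27a1, a cartilage-type fibrillar collagen, fell from 33, 37.2 and 24 CPM to 15.8, 13.1 and 11.3 CPM, and Col18a1, the most abundant member, read 1098, 701 and 676 CPM against 603, 665 and 644 CPM and was not called. Lum, the collagen-binding proteoglycan lumican, rose 10.4-fold and Nid1, the basement membrane linker, 3.73-fold. Fn1, fibronectin, which hepatocytes secrete into plasma, read 3341, 1399 and 1344 CPM against 1942, 2207 and 2734 CPM and was not called except without library 13. Mmp2, the gelatinase of stellate cells, read 4.46, 6.32 and 4.52 CPM against 40.3, 32.9 and 26.4 CPM, and Adamts5, a proteoglycan protease, rose 6.59-fold. Timp1, the collagenase inhibitor, read 0.495, 1.93 and 0.266 CPM against 1.81, 2.58 and 3.87 CPM and was not called (adjusted p = 0.252).

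Of 29 tested stellate and myofibroblast genes 13 were higher and 3 lower. Those lower were Fcna and Vipr1, 1.55-fold and 1.46-fold, and Ecm1, whose call was lost without library 13, 15, 18, 19 or 20. The growth factor receptor genes Pdgfra and Pdgfrb rose 3.64-fold and 2.8-fold, and the intermediate filament gene Vim from 26, 27 and 16.4 CPM to 80.6, 93.1 and 93.1 CPM. The contractile genes Acta2 and Tagln did not pass the test. Acta2, smooth muscle actin, read 8.42, 9.76 and 5.05 CPM against 4.64, 7.05 and 13.5 CPM (0.08 ± 0.55, adjusted p = 0.935), and Tagln, transgelin, 11.7, 10.1 and 5.31 CPM against 8.86, 6.74 and 11.9 CPM (adjusted p = 0.99). Both overlapped fully between the arms. Des, desmin, which skeletal muscle also makes, was high only in the libraries with muscle transcripts, at 25.1 CPM in OO library 14 and 39.9 CPM in CCl4 library 20 against 5.84 to 9.79 CPM in the other 4. Lrat, the retinol-storing enzyme of quiescent stellate cells, averaged 47.9 and 61.5 CPM and was not called. Of 31 genes of TGF-beta ligands, receptors and targets 12 were higher and 0 lower (7 without library 18). Ltbp2, which tethers matrix microfibrils, read 3.57, 2.45 and 2.21 CPM against 41.4, 11 and 14.3 CPM, a difference of 3.04, or 2.21 without library 18. Inhba, the activin A subunit, read 10.8, 16.9 and 10.9 CPM against 42.9, 24.5 and 69 CPM (adjusted p = 0.00261).

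Progenitor and ductular genes rose in part. Of 25 tested cholangiocyte and ductular genes 10 were higher and 0 lower. Prom1, encoding the progenitor antigen CD133, read 8.12, 6.79 and 2.3 CPM against 57.2, 45.7 and 83.6 CPM (3.43 ± 0.49, adjusted p = 0.000663), and Pkhd1, fibrocystin of bile duct cilia, rose 1.72-fold. Krt19, the keratin that defines cholangiocytes, read 4.56, 2.56 and 2.83 CPM against 3.04, 3.19 and 2.53 CPM (adjusted p = 0.856). Of 13 fetal liver genes 8 were higher and 0 lower (5 without libraries 14 and 20). Ly6d, a surface protein of early lymphoid and stressed epithelial cells, read 17.6, 16.1 and 4.25 CPM against 163, 106 and 170 CPM, and Golm1, the Golgi membrane protein GP73, 10.2, 11.1 and 8.94 CPM against 84.8, 39.9 and 84.8 CPM. Afp, alpha-fetoprotein, rose 3.56-fold on average, from 5.15, 5.69 and 4.69 CPM to 13.5, 7.48 and 34.4 CPM, and the difference of 1.81 was 1.02 without library 20. Akr1c18 read 0.694, 0 and 0.0885 CPM in the OO arm and 14.7, 4.97 and 29.7 CPM in the CCl4 arm (6.24 ± 0.91), a difference that ranged from 5.41 to 8.63 when libraries were left out in turn. Of 25 p53 target and senescence genes 13 were higher and 0 lower (8 without libraries 14 and 20). Among them Cdkn1a, the cell cycle inhibitor p21, rose from 2.97, 1.15 and 0.531 CPM to 10.2, 6.19 and 8.08 CPM (2.45 ± 0.50, or 3.19 without library 13), and Eda2r, a death receptor, 8.74-fold.

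Many P450 genes of drug metabolism fell. Of 43 tested P450 genes 24 were called lower (background 11%) and 3 higher, with a median difference of -0.67. Cyp2a5, a coumarin hydroxylase, read 3450, 2761 and 3303 CPM in the OO arm and 30.6, 51 and 13.8 CPM in the CCl4 arm, 99.7-fold lower (-6.63 ± 0.46, adjusted p = 2.8e-05). Cyp2e1 itself read 5859, 2909 and 3527 CPM against 425, 731 and 194 CPM (-3.19 ± 0.42, adjusted p = 0.000418), and Cyp1a2, of pericentral hepatocytes, 723, 364 and 486 CPM against 118, 91.5 and 61.3 CPM. Library 20 was the lowest CCl4 library for 15 of the 24, and library 19 the highest for 13. Cyp3a11 and Cyp2b10, targets of the xenobiotic receptors PXR and CAR, were not called: Cyp3a11 read 2675, 3504 and 4108 CPM against 4523, 5552 and 2652 CPM, and Cyp2b10 991, 1449 and 839 CPM against 799, 569 and 1102 CPM. The genes called higher were Cyp3a44, Cyp3a41a and Cyp2c70. Cyp3a44, a female-biased copy near Cyp3a11, read 0.297, 0.209 and 0.0885 CPM against 1.9, 15.4 and 8 CPM (5.36, or 4.56 without library 19); the call of Cyp3a41a was lost without library 14, 15 or 19, and that of Cyp2c70 without 13, 15 or 19. Reads that fit more than 1 place were not counted, so values in the Cyp2a, Cyp2b, Cyp2c, Cyp3a and Cyp4a families are uncertain. The P450 list summed to 32800 to 36200 CPM in the OO arm, 15590 to 22740 CPM in the CCl4 arm, 14720 CPM in the OO chow library of day 20 and 9479 and 9982 CPM in the CCl4 chow libraries. It summed to 43580 CPM in the OO library with ethanol of day 23, and at day 0 to 17490 and 20750 CPM in OO and 24280 and 22670 CPM in CCl4.

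Alcohol handling followed. Of 22 tested genes of alcohol and aldehyde metabolism 13 were lower and 2 higher (7 lower without libraries 14 and 20). Aldh1a1, which oxidises retinal and acetaldehyde, read 3244, 2854 and 4254 CPM against 1503, 1100 and 977 CPM, and Cat, catalase, 3554, 2476 and 2573 CPM against 1429, 1595 and 1252 CPM (2.01-fold lower, adjusted p = 0.00207). Adh1, the main alcohol dehydrogenase, read 2933, 3098 and 3299 CPM against 2835, 2037 and 2524 CPM and was not called (adjusted p = 0.136). Aldh1b1, a mitochondrial aldehyde dehydrogenase, rose 2.55-fold. Glucuronosyl and sulfotransferase genes had 20 of 30 lower and 2 higher, with a median of -1.04. Ugt2b5 read 900, 1223 and 1407 CPM against 417, 400 and 286 CPM, and Sult2a8, a bile acid sulfotransferase of male liver, 306, 187 and 358 CPM against 30.9, 61.2 and 12 CPM (-3.02, or -3.71 without library 19).

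NRF2 is a sensor of oxidative and electrophilic stress that drives genes of glutathione metabolism and conjugation. Of 39 tested glutathione and NRF2 genes 21 were lower and 4 higher, with a median of -0.64 (12 lower and 1 higher without libraries 14 and 20, 2 higher without library 15 or 18). Those higher were Nfe2l2, which encodes NRF2, the NRF2 targets G6pdx and Akr1b8 (1.71-fold and 1.81-fold) and Gpx3, a secreted peroxidase. The call of Akr1b8 was lost without library 14, 15 or 18. Gstm4, a glutathione transferase, read 128, 110 and 115 CPM against 24.5, 27.6 and 18.4 CPM, and Gclc, which limits glutathione synthesis, 658, 514 and 506 CPM against 230, 232 and 247 CPM (adjusted p = 0.000819). Cbr3, a carbonyl reductase, read 31.8, 31 and 16.6 CPM against 2.95, 3 and 3.03 CPM, and Abcc4, an efflux pump for conjugates, 120, 116 and 84.5 CPM against 14.9, 17 and 21.7 CPM. Nfe2l2 read 94.7, 73.4 and 67.7 CPM against 152, 108 and 136 CPM (1.68-fold higher, adjusted p = 0.0113), a call lost without library 15 or 18, without 14 and 20, and with a tested fold of 1.5. Cbr3 and Abcc4 were the 2 genes of 14778 (0.0135%) whose CCl4 effect under ethanol differed from that under chow by the test of the difference. Cbr3 stood at 0.869 CPM in the OO chow library and 3.15 and 5.11 CPM in the CCl4 chow libraries, so that the log2 difference was 2.24 under chow and -3.14 under ethanol (difference -5.38, adjusted p = 0.0164). Abcc4 read 9.48 CPM in the OO chow library and 14.3 and 10.6 CPM in the CCl4 chow libraries (difference -2.98, adjusted p = 0.0235). At an unadjusted p under 0.05 this difference was met by 1215 genes, and DESeq2 called 152. The adjusted count was 21 without library 13, 0 without 18, 6 without 19, 5 without 20 and 9 without 14 and 20. The chow comparison has 1 OO library, so its spread is taken from the other groups. That library, library 12, held pancreatic transcripts (211 CPM in sum, against 9.23 CPM in the OO chow library of day 23). Gpnmb read 33.7 CPM in library 12 and 2.41 CPM in the day 23 library. The monocyte and recruited macrophage list summed to 924 and 509 CPM. How these features of library 12 bear on the difference was not tested. With the day 23 chow library in its place 14 genes were called, among them Abcc4, Cbr3, Gclc and Gstm4.

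All 25 tested genes of cholesterol synthesis had a negative difference and 20 were called lower, with a median of -0.83. The count was 12 without library 15, 11 without 18, 13 without 20 and 10 without 14 and 20. Fdps, which makes farnesyl diphosphate, read 172, 408 and 486 CPM against 121, 134 and 103 CPM (-1.57 ± 0.30, adjusted p = 0.00346), and Cyp51, which demethylates lanosterol, 184, 261 and 401 CPM against 93.5, 118 and 102 CPM. OO library 13 was the lowest of its arm for 19 of the 20. Of 40 bile acid and organic ion transport genes 19 were lower, 19 were not called and 2 were higher, Cyp39a1 and Slc10a2, the latter not without library 15 or 18. Abcg5 and Abcg8, the partner subunits of the sterol exporter into bile, fell 3.93-fold and 7.21-fold; Abcg8 read 138, 129 and 126 CPM against 11.3, 22.1 and 21 CPM (adjusted p = 2.8e-05). Cyp7b1, of the acidic pathway of bile acid synthesis, read 155, 143 and 230 CPM against 16, 17.4 and 9.51 CPM. Cyp39a1, a hydroxylase of oxysterols, rose 3.02-fold.

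Fat metabolism changed in both directions. Of 39 tested genes of fatty acid oxidation and PPARA targets 18 were lower and 1 higher (11 lower without library 18). Acaa1a, the peroxisomal thiolase, read 166, 129 and 138 CPM against 59, 53.7 and 57.2 CPM (adjusted p = 9.35e-05), and Cpt2, of mitochondrial import, fell 1.66-fold. Of 39 lipogenesis and lipid droplet genes 6 were higher (15.4%, background 12.7%) and 9 lower (23.1%, background 11%). The count higher was 3 without library 15. Fitm1, which partitions triglyceride into droplets, read 26.4, 27.1 and 32.9 CPM against 0.506, 0.123 and 0.758 CPM (-5.99 ± 0.34, adjusted p = 7.44e-06), the smallest adjusted p among the genes named here. Scd1, the stearoyl-CoA desaturase, rose from 1337, 2413 and 985 CPM to 4219, 8597 and 2074 CPM with overlapping values (1.65, or 1.00 without library 19), and its call was lost without library 13, 15 or 19. Fasn, fatty acid synthase, read 443, 2204 and 1104 CPM against 1419, 618 and 1707 CPM, a spread within each arm that exceeded the difference between them (adjusted p = 0.998). Elovl3 read 17, 7.2 and 164 CPM against 0.548, 0.123 and 0.0842 CPM (-7.66, or -5.26 without library 15 and -9.09 without library 18; not called by limma-voom).

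Position in the liver lobule sets what a hepatocyte makes. Hepatocytes near the central vein make glutamine and house most P450s, while those near the portal vein make urea and glucose. Of 23 pericentral genes 10 were lower and 1 higher (median -0.43). Of 24 periportal genes 2 were lower and 4 higher (8.33% and 16.7%, median 0.04), near the 11% and 12.7% of all tested genes. The difference between the lists was not tested. Without library 19 the periportal list had 8 lower and 6 higher, with a median of -0.18. Glul, glutamine synthetase of the last cell layer around the vein, read 849, 610 and 548 CPM against 120, 215 and 120 CPM (-2.14 ± 0.25, adjusted p = 0.000218), Oat, of ornithine breakdown, 531, 384 and 389 CPM against 80.7, 86.3 and 53.8 CPM, and Rhbg, an ammonium carrier, fell 6.19-fold. Cyp2f2, a periportal P450, read 736, 555 and 648 CPM against 662, 650 and 577 CPM and was not called. Trf, transferrin, rose from 20770, 19790 and 19090 CPM to 35290, 37480 and 43670 CPM (adjusted p = 0.00104). Of 52 urea cycle and amino acid genes 15 were lower and 0 higher. That count was 9 without library 15, 7 without 18, 23 without 19, 8 without 20 and 6 without 14 and 20. Cps1, the first enzyme of the urea cycle, read 3198, 4784 and 4292 CPM against 4412, 6092 and 3550 CPM and was not called.

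Genes with male-biased expression in mouse liver fell and many with female-biased expression rose, in animals that were all male. Of 26 tested male-biased genes 16 were lower and 0 higher (median -1.06), and of 30 female-biased genes 14 were higher and 3 lower (median 1.46). Without library 19 the female-biased counts were 10 and 5, with a median of 0.73. Moxd1, a monooxygenase-like protein, read 38.3, 25.9 and 11.9 CPM against 0.169, 0.184 and 0.0842 CPM, and Susd4, a complement regulator, 11.4, 6.63 and 8.59 CPM against 0.844, 0.184 and 0.168 CPM (-4.24, or -5.56 without library 18). Cyp4a12a, a male-specific fatty acid hydroxylase, read 80.5, 23.7 and 30.3 CPM against 0.97, 0.552 and 0.0842 CPM (-6.16, or -5.42 without library 13 and -6.95 without library 18). Among female-biased genes Abcd2, a peroxisomal fatty acid carrier, read 12.6, 19.9 and 11.4 CPM against 70.2, 71.7 and 74.2 CPM (2.28 ± 0.19, adjusted p = 5.27e-05), and Atp6v0d2, a proton pump subunit that macrophages also express, rose 7.85-fold. The female-biased genes called lower were Sult3a1, Cyp2b13 and Tox. Cyp7b1 is counted among the male-biased genes, and Prom1 and Cyp39a1 among the female-biased ones, so these lists share members with lists above. Growth hormone, whose pattern of release sets this dimorphism, acts through Ghr, which read 439, 404 and 483 CPM against 200, 252 and 223 CPM (adjusted p = 0.0005). Igf1, its main hepatic product, read 488, 344 and 436 CPM against 354, 552 and 432 CPM and was not called. Of 22 genes of that axis 5 were lower (22.7%, background 11%) and 2 higher (9.09%, background 12.7%). The count lower was 2 without library 13, 15, 18 or 20.

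Other lists ranged from little change to calls mostly in 1 direction. The shares over all tested genes were 12.7% higher and 11% lower. Acute-phase genes had 1 of 33 tested members higher (Cp, ceruloplasmin, 1.59-fold) and 2 lower; the count lower was 0 without library 15 or 18, 1 without 20 and 5 without 19, and the call of Cp was lost without libraries 14 and 20. Saa1 read 2112, 404 and 798 CPM against 612, 1095 and 741 CPM and was not called. Complement and coagulation genes had 5 of 42 higher (11.9%) and 8 lower (19%). The count lower was 5 without library 15, 3 without 18 and 5 without 14 and 20. The 3 chains of C1q, made by macrophages, were among those higher, with C1qb at 70.3, 62.5 and 54.4 CPM against 146, 151 and 129 CPM. Endothelial genes had 4 of 28 higher and 3 lower with a median of 0.00 (2 and 0 without libraries 14 and 20), and Stab2, a sinusoidal scavenger receptor, read 188, 149 and 140 CPM against 187, 194 and 168 CPM. Of 40 lysosomal genes 18 were higher (45%) and 4 lower (2 lower without library 14 or 15, 1 without 18 or 20). Among 39 annexin and actin genes 17 were higher (43.6%) and 1 lower. Hepatocyte transcription factors had 10 of 36 lower (27.8%) and 0 higher. Nr1i3, encoding the receptor CAR, read 120, 157 and 133 CPM against 46.6, 63.5 and 34.4 CPM (adjusted p = 0.000834), and Hnf4a 761, 562 and 589 CPM against 420, 481 and 537 CPM, which was not called (adjusted p = 0.0607; called without library 14). Iron genes had 3 of 28 higher and 6 lower (3 lower without library 15 or 18), with Fth1, ferritin heavy chain, at 1032, 567 and 685 CPM against 329, 326 and 331 CPM. Of 30 genes of the unfolded protein and stress response 1 was higher and 4 lower, of 18 clock genes 1 and 4, and of 30 glycolysis genes 7 and 1. Single libraries moved these counts: 8 stress response genes were lower without library 13, 2 clock genes without 13 and 1 without 14, 18 or 20, and of the glycolysis genes 3 without 13, 2 without 14 or 20, 0 without 18 and 4 without 19. Pkm, the pyruvate kinase of growing cells and macrophages, rose from 41.5 ± 10.7 to 113 ± 22.6 CPM (SD, n = 3).

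The same contrast at day 0, before ethanol, shares no library with the day 20 ethanol arms. With n = 2 per group it gave 304 called genes of the 14778 tested. Of these 304 genes 159 were among the 3509 called here, which are 23.7% of all tested genes. The 2 effects had the same direction for 115 of the 159 and opposite directions for 44. A test of the difference between the effects at day 20 under ethanol and at day 0 called 1172 genes (7.93%). The count was 1851 without library 13, 762 without 15, 696 without 18, 779 without 20 and 611 without both 14 and 20. Of 25 monocyte and recruited macrophage genes 14 differed and of 13 fetal liver genes 6. Of 33 acute-phase genes 15 differed, 14 were called at day 0 and 3 here. Orm2, an orosomucoid, read 1196 and 520 CPM in OO and 15.3 and 13.1 CPM in CCl4 at day 0, but 698, 950 and 652 CPM against 1356, 699 and 692 CPM at day 20 under ethanol (difference of the effects 6.17, adjusted p = 0.000516). Abcg8 moved in opposite directions, with 55.2 and 49.4 CPM in OO and 139 and 148 CPM in CCl4 at day 0 (difference -4.32, adjusted p = 0.000181). Cyp2a5 read 145 and 278 CPM against 216 and 188 CPM at day 0, far below the 2761 CPM of the lowest OO library compared here; in the chow libraries of day 20 it read 200 CPM in OO and 82.5 and 92.2 CPM in CCl4. For other genes no difference was called, which does not show that the effects were equal. Glul fell by 2.40 on the log2 scale at day 0 and by 2.14 here (difference 0.26, adjusted p = 0.751). Gpnmb rose by 6.42 at day 0, from 0.551 and 0.0799 CPM, near the floor, to 28.9 and 23.8 CPM. In the CCl4 arm of day 20 under ethanol it read 273, 434 and 206 CPM. Of the mitosis genes 11 of 62 differed from day 0, of the P450 genes 18 of 43, of the urea cycle and amino acid genes 21 of 52 and of the collagens 3 of 25. The day 20 and day 0 groups differ in the later CCl4 doses, the feeding and the time, which cannot be told apart.

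**Figure D4:**
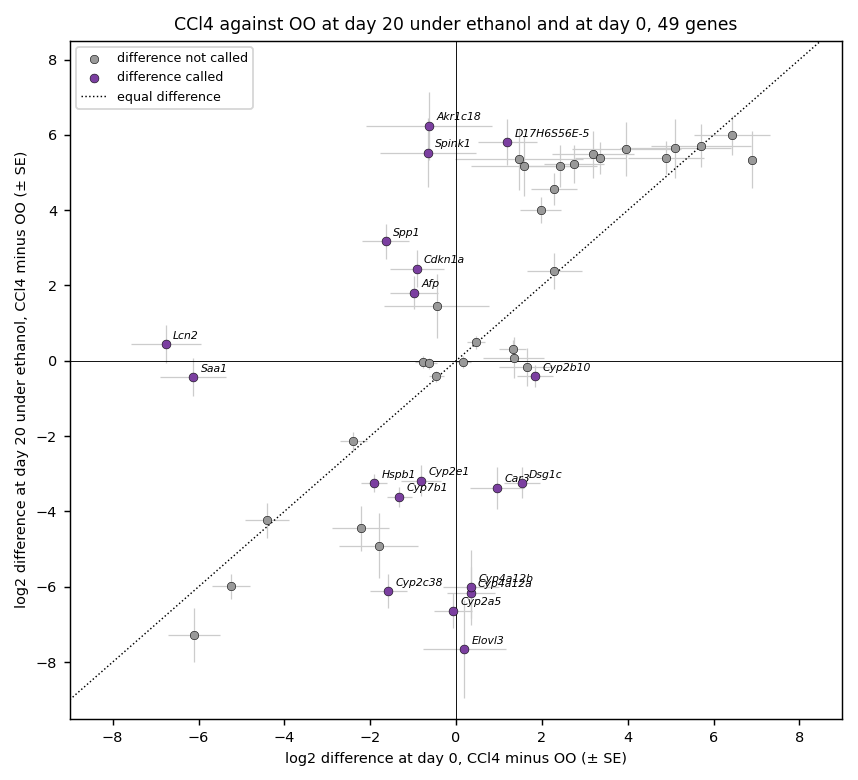
The log2 difference between CCl4 and OO at day 20 under ethanol (vertical) against that at day 0 (horizontal), each with its standard error, for 49 genes (the 15 largest changes per direction and the genes named whatever their p). The 19 genes whose effects differed by test are named; Lcn2 and Saa1 lie far to the left at day 0 and near 0 at day 20, and Gpnmb lies near the dotted line of equal difference. Depdc1a, at 0 in both OO libraries of day 0, has no horizontal error bar and no fixed horizontal place.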

How the data were processed

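Liver RNA was sequenced from TruSeq mRNA libraries, per the labels' protocols. Each library has its own deposited table of unnormalised counts by gene symbol. GSNAP, the mm10 build and DESeq2 1.12.3 are named in the submitters' processing notes. Which program counted the reads, with what annotation and strand setting, is not given in the sources used here. Reads placed at more than 1 site, 18.1% to 28.8% of those listed, stayed out of all totals, like the other lines without a gene name; genes took 41.4% to 53% of the reads listed. Names of the deposited tables give another day than the labels, and the labels were followed.

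After filterByExpr and TMM scaling, the 15 libraries were fitted together in 8 groups with edgeR 4.0.16 in R 4.3.3, which left 7 residual degrees of freedom (common dispersion 0.0414). The quasi-likelihood test was used with Benjamini-Hochberg adjustment over 14778 genes, and the 2 differences of differences were contrasts of the same fit. Library pairs of an arm differed by more than counting error (chi-square per degree of freedom 19.4 to 78.4). Coordinates of genes are from GENCODE M21 and promoter windows from RefSeq.

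Members and lists were chosen with earlier results of these data known, and lists are described by counts and medians with no test of their own. Named genes are the 15 largest called changes per direction (at least 5 CPM in either arm, no overlap), up to 5 called genes per direction and 2 not called from each of 49 lists, and 21 fixed genes. Outside this rule Tagln, Des, Col3a1, Il1b, Orm2 and Cd74 were chosen after their values were seen, and Prc1 by its promoter window. Other settings tried were size factors by RLE, testing every gene, requiring 1 CPM in at least 3 libraries, glmTreat with a fold of 1.5, DESeq2 1.42.0, limma-voom 3.58.1, the latter also with a random effect of lane, the 6 or the 9 day 20 libraries alone, and each library left out. Leaving out libraries 6 and 12, which hold pancreatic transcripts, or 14 and 20, and putting the day 23 chow library in place of that of day 20 were added after the data were seen.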

Additional observations from a re-analysis of the deposited data

Results flagged for a closer look

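The effect of CCl4 under ethanol at day 20 was compared with that at day 0 and with that under chow. Each comparison used the edgeR test of the difference itself. Of 49 genes (the largest changes and the genes named whatever their p) 19 differed from day 0. From chow 2 of all 14778 tested genes differed, Cbr3 and Abcc4, which are not among the 49. Values are differences of log2 effects. Higher at day 20 than at day 0 was the effect on the acute-phase genes Lcn2 (7.21) and Saa1 (5.68), whose day 0 effects were -6.76 and -6.12 and which were not called at day 20. The effect was also higher for Akr1c18 (6.87), Spink1 (6.18), Spp1 (4.82), D17H6S56E-5 (4.62), Cdkn1a (3.36) and Afp (2.79).

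Lower at day 20 than at day 0 was the effect on the P450 genes Cyp2a5 (-6.57), Cyp4a12a (-6.50), Cyp4a12b (-6.37), Cyp2c38 (-4.55), Cyp2e1 (-2.37), Cyp7b1 (-2.28) and Cyp2b10 (-2.25). The same held for Elovl3 (-7.85), Dsg1c (-4.78), Car3 (-4.32) and Hspb1 (-1.34), the last with an adjusted p of 0.0495. Under ethanol compared with chow the effect was lower for Cbr3 (-5.38) and Abcc4 (-2.98), where the chow comparison has 1 OO library.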

How the results depend on the processing

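The 3509 calls became 1117 when a fold of 1.5 was tested, 2319 with the 6 compared libraries alone and 2020 without libraries 14 and 20, and ranged from 2223 (without library 18) to 3981 (without library 13) when 1 library was left out. The 2 genes whose effect differed from that under chow became 49 with no filter, 152 by DESeq2, 35 by limma-voom, 55 with lane as a random block, 0 with the 9 day 20 libraries alone, 9 without libraries 14 and 20 and 14 with the day 23 chow library, and ranged from 0 to 21 when 1 library was left out. The 1172 genes that differed from day 0 became 284 with a fold of 1.5 and 611 without libraries 14 and 20, and ranged from 696 to 1851 when 1 library was left out. The cause of these shifts was not tested. Of 161 named genes none called changed sign under these settings, while the balance of higher and lower calls turned without library 13. No paired analysis was possible because the libraries' numbers are unique to each library and the groups compared share none.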
